A study of Mus musculus with 6 samples.

Results

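The genes described here are 40 genes of autophagy and of the lysosome in mouse kidney, a small share of the 20284 genes that the array's probes named through RefSeq transcripts. A gene belonged to the set when the list named it and at least 1 non-control probe carried a RefSeq transcript of it. All 40 had such a probe, 11 of them had 2, and the 51 probes together all passed the filter on dim signal that left 14545 genes for testing. Kidney RNA of male mice of the inbred strain C57BL/6 was measured at 20 months (aged) and at 2 months (young), with 3 samples per age and no treatment or altered allele named in the labels. One single-colour Agilent array was used per sample. The triplicates are described as separate preparations of RNA, and nothing says that they were separate animals. A p-value or an interval therefore reflects spread among samples that may in part be technical.

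The lysosome is the acidic compartment in which cells break down proteins, sugars and lipids, and autophagy is the process that delivers parts of the cell's own cytoplasm to it inside a double-membraned vesicle, the autophagosome. Kinases of the Ulk family start the process, a lipid kinase complex with Beclin 1 marks the site, and linked conjugation reactions attach proteins of the Atg8 family to the growing membrane. The transcription factor TFEB and its relative TFE3 drive many lysosome and autophagy genes when they enter the nucleus. In the kidney, proximal tubule cells take up filtered protein and digest it in a large lysosomal system, and autophagy in these cells and in podocytes is well studied in ageing.

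All 6 arrays lay on 1 slide, aged samples in its row 2 and young samples in its row 1. Age and position in these rows cannot be told apart. Array brightness, taken as the 75th percentile of processed signal, came to 4498, 4205 and 2702 on aged replicates 1 to 3 and to 4366, 4061 and 2892 on young replicates 1 to 3. Of all probes, 46.2% to 62.8% were well above background on the aged arrays and 55.2% to 72.8% on the young arrays. No spot was saturated. Values below are log2 processed signal minus the array's 75th percentile, and every difference is aged minus young on that log2 scale with its moderated standard error (SE, n = 3 arrays per age). Precision is limited by the number of arrays. Of the kidney markers listed, 12 of 12 proximal tubule genes, 8 of 8 loop and distal tubule genes and 6 of 6 podocyte genes passed the same filter. In whole tissue, fewer cells of a type and less RNA per cell cannot be told apart.

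None of the 40 genes differed between aged and young kidney at an adjusted p under 0.05 in limma. The count was 0 of 40, where 3.38% of all genes tested were called, 1.98% higher and 1.4% lower, and at that share a count of 0 is not a result about these genes. Without adjustment 2 of the 40, Gaa and Atg9a, had a p under 0.05 (5%), against 17.1% of all genes tested. Atg9a passed the filter only through the young arrays, where it was higher, so its p is no support for a difference. The ages lay fully apart for 4 of the 40 (10%), against 21.9% of all genes tested. Gaa and Grn lay higher in aged kidney (10.4% of all genes tested) and Lamp1 and Gabarapl2 lower (11.5%). Differences were above 0 for 20 members and below 0 for 20, but this split was 11 above and 29 below without aged replicate 3, and 26 above and 14 below under median centring. The sign turned in at least 1 of the alternatives for 22 of the 40, and every one of the 40 turned or moved by over 1.5 times when some single array was left out. The same counts over all genes tested were not made, so these are not a result about the members. The median difference was 0.00016 over the members and -0.01 over all genes tested.

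The members' values were close between ages on these arrays, and the intervals of the differences say how close. The intervals use the spread among arrays, which may in part be technical, so they may be too narrow for differences among animals. The 95% interval of the difference lay within 0.5 of 0 on the log2 scale for 34 of the 40 (85%). It lay within 1 for 38 (95%). Of all genes tested, 56.1% and 89.5% had intervals within these bounds. The median size of the difference, without its sign, was 0.09 for the members and 0.14 for all genes tested, and the median SE was 0.12 and 0.13. The members' probes were also brighter, with a median level over both ages of 2.46 against 0.43 for all genes tested, and 39 of 40 (97.5%) were above background on all 6 arrays, against 90.2% of all genes. Among the 13114 genes above background on all 6 arrays, 61% had intervals within 0.5, and the median size of the difference was 0.13. The part of brightness in the members' share was not tested. The 6 members whose intervals passed 0.5 were Lamp1, Npc1, Gaa, Gla, Atg9a and Pink1, and those of Gla and Atg9a also passed 1. Passing a bound depends on the centre of an interval as well as its width. The interval of Gaa ran from 0.0066 to 0.58, and the wider one of Ctsk, within 0.5, from -0.45 to 0.47. The interval of Atg9a rests on aged signals that were not above background.

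**Figure D1:**
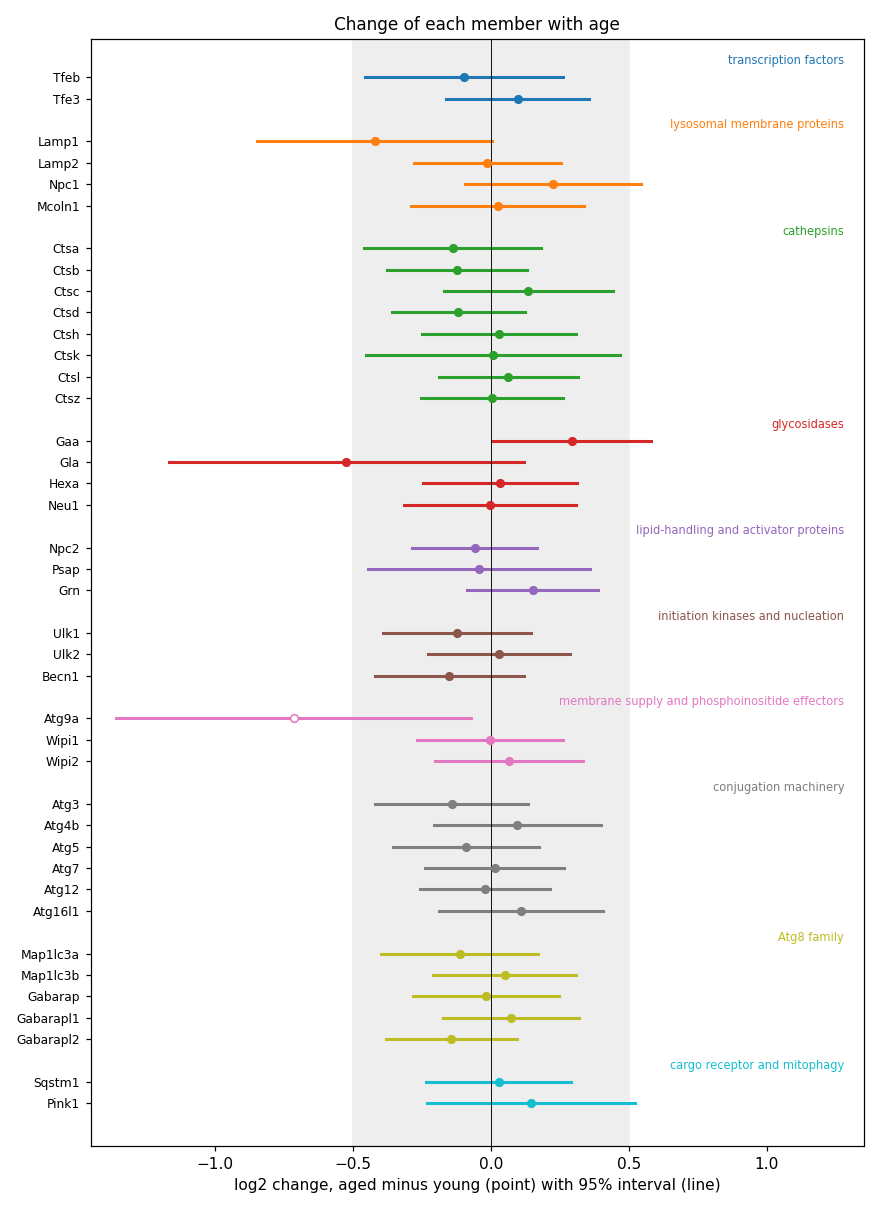
Log2 difference between aged and young kidney (x axis) for each of the 40 genes (rows, grouped by role), with its 95% interval as a line and the grey band marking 0.5 either way. The point of Atg9a is open because its probe was above background on 0 of 3 aged arrays. A reader should see that 34 intervals lie inside the band and that, leaving Atg9a aside, Gla and Lamp1 have the points farthest below 0 and Gaa the farthest above.

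Among the transcription factors, Tfeb, the master regulator of lysosome genes, had values of -0.06, -0.28 and 0.29 on aged replicates 1 to 3 and 0.05, 0.01 and 0.18 on young replicates 1 to 3. The aged arrays lay on both sides of the young ones, and the difference was -0.10 ± 0.16 (adjusted p = 0.803). Tfe3, its relative, had 1.48, 1.30 and 1.32 on the aged and 1.34, 1.33 and 1.14 on the young arrays. The groups overlapped, with aged replicate 1 the highest, and the difference was 0.10 ± 0.11 (adjusted p = 0.72).

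TFEB and TFE3 bind a short palindromic DNA element, and stretches of promoters that hold its core are shown here because it is the sequence through which these factors are known to act on lysosome genes. Promoter windows from 250 bases before to 50 bases after a start site, from RefSeq on build GRCm38.p6, were found for 33 of the 40 genes (38 windows); Map1lc3a, Atg12, Atg16l1, Npc1, Ctsb, Becn1 and Ctsh had none in the table. The core TCACGTG, searched on both strands, was in 8 of the 38 windows (21.1%), each of a different gene, and in 3.77% of all 32851 windows. The symmetric form TCACGTGA, which holds the core on both strands at once, was in 5 of the 38 and in 0.974% of all windows. The shorter CACGTG, which is inside each of these, was in 10 of the 38 and in 7.15% of all windows. The full 10-letter element, which adds a base at each end of the symmetric form, was in 0 of the 38 and in 0.326% of all windows. Other lysosomal hydrolases, a list taken up below, had 34 windows. Of these, 6 held CACGTG, 5 the core, 0 the symmetric form and 0 the full element. A match is a description of the letters and not a bound site.

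The 8 stretches below run 5′ to 3′ on the gene's strand, end at or before the start site, and have the core in capitals.
Lamp1: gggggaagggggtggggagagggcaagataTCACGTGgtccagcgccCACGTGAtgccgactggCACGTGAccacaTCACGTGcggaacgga
Gla: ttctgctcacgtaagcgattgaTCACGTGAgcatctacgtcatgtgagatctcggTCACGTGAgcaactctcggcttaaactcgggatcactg
Mcoln1: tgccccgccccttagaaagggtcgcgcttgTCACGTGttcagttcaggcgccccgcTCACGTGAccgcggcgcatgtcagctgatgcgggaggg
Atg3: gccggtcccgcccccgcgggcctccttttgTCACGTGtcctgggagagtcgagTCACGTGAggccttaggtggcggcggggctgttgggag
Ctsd: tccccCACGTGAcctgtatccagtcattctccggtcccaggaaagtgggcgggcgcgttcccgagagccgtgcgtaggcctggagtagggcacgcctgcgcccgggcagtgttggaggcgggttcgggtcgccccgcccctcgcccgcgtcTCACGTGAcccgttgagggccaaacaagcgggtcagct
Ctsa: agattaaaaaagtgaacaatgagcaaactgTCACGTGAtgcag
Gaa: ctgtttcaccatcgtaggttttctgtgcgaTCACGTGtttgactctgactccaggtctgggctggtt
Atg7: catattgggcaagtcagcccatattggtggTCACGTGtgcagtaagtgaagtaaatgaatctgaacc

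The stretch of Lamp1 is chr8:13159069-13159160 on the plus strand, and its 4 copies begin at positions -62, -45, -28 and -16 relative to the start site. That of Gla is chrX:134601163-134601255 on the minus strand, with symmetric copies at -228 and -195. Mcoln1 (chr8:3500417-3500510, plus), Atg3 (chr16:45158704-45158794, plus) and Ctsd (chr7:142387889-142388077, minus) have 2 places each, 1 of them symmetric. Ctsa (chr2:164833730-164833772, plus, at the second of 2 start sites) has 1 in the stretch shown and another that begins 5 bases into the transcript. Gaa (chr11:119267792-119267858, plus) and Atg7 (chr6:114670933-114670999, plus) have 1 each. The 8 genes with the core had differences from -0.52 (Gla) to 0.29 (Gaa), 3 above 0 and 5 below, with a median of -0.13. The 25 genes with a window without it had a median of 0.01, with 14 above 0 and 11 below, and none of either kind was called.

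The lysosomal membrane proteins held 1 of the 2 members whose aged arrays all lay below the young ones. Lamp1, one of the most abundant glycoproteins of the lysosome's limiting membrane, had 3.66, 2.99 and 3.46 on aged replicates 1 to 3 and 3.68, 3.98 and 3.72 on young replicates 1 to 3. The groups did not overlap, though aged replicate 1 was only just below young replicate 1, and aged replicate 2 was the lowest. The difference was -0.42 ± 0.18 (0.747-fold, 95% interval 0.556 to 1.00, adjusted p = 0.297), and without aged replicate 2 it was -0.23. Npc1, the membrane protein that exports cholesterol from the lysosome, had -0.74, -0.30 and -0.42 on the aged and -0.61, -0.79 and -0.74 on the young arrays. Aged replicates 2 and 3 were above all young arrays and aged replicate 1 was not, with a difference of 0.23 ± 0.14 (adjusted p = 0.456). Lamp2, the companion of Lamp1 that also serves chaperone-mediated autophagy, differed by -0.01 ± 0.12 and Mcoln1, a calcium channel of the lysosome, by 0.02 ± 0.14.

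The 8 cathepsins, the lysosome's proteases, differed by -0.14 to 0.14, and all 8 intervals lay within 0.5 of 0. Ctsa, a carboxypeptidase that also protects other hydrolases, had 3.43, 3.51 and 3.39 on the aged and 3.69, 3.75 and 3.31 on the young arrays, a difference of -0.14 ± 0.14 (adjusted p = 0.668). Young replicate 3 was the lowest of the 6 and the other two young arrays the highest. Ctsc, which activates proteases of immune cell granules, had 0.60, 0.69 and 0.98 on the aged and 0.50, 0.64 and 0.72 on the young arrays, a difference of 0.14 ± 0.13 (adjusted p = 0.658). Its groups overlapped, with aged replicate 3 the highest. The broad-acting endopeptidases Ctsb, Ctsd and Ctsl differed by -0.12, -0.12 and 0.06, and the exopeptidases Ctsh and Ctsz by 0.03 and 0.00. Ctsk, the collagen-degrading cathepsin of osteoclasts and fibroblasts, differed by 0.01 ± 0.20, with aged arrays at -0.18 to 0.10 and young arrays more widely spread at -0.32 to 0.42.

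The 4 glycosidases held both ends of the differences among the 39 members above background on all 6 arrays, Gaa at the upper and Gla at the lower, and neither was called. Gaa, the acid alpha-glucosidase that degrades glycogen, had 2.56, 2.63 and 2.91 on aged replicates 1 to 3 and 2.46, 2.41 and 2.36 on young replicates 1 to 3. All aged arrays were above all young ones, and the difference was 0.29 ± 0.12 (1.23-fold, 95% interval 1.005 to 1.495, unadjusted p = 0.046 and adjusted p = 0.281 in limma). Its second probe, well above background on 2 of 3 aged and 3 of 3 young arrays, differed by -0.19 ± 0.23, and the mean of both probes by 0.05. Gla, alpha-galactosidase A, had 0.59, -0.57 and 0.15 on the aged and 0.61, 0.81 and 0.33 on the young arrays. Aged replicate 2 was far below the rest and aged replicate 1 was level with young replicate 1. The difference was -0.52 ± 0.28 (adjusted p = 0.389), and leaving out aged replicate 2 gave -0.21, where leaving out aged replicate 1 gave -0.79. Hexa, a subunit of beta-hexosaminidase, and Neu1, the lysosomal sialidase, differed by 0.03 ± 0.12 and -0.0033 ± 0.13.

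Of the lipid-handling and activator proteins, Grn, the precursor of the granulins that lysosomes need for normal hydrolase activity, had 2.61, 2.69 and 2.81 on the aged and 2.53, 2.57 and 2.56 on the young arrays. Every aged array was above every young array, but the step was small, 0.15 ± 0.10 (adjusted p = 0.51). Npc2, the soluble partner of Npc1 in cholesterol export, had 3.17, 3.07 and 3.10 on the aged and 3.14, 3.21 and 3.17 on the young arrays, the narrowest spread of all 40 members at 0.142 from lowest to highest, and a difference of -0.06 ± 0.10 (adjusted p = 0.816). Psap, the precursor of the saposins that help hydrolases reach lipids, differed by -0.04 ± 0.17.

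Early steps of autophagy likewise gave no call. Becn1, the scaffold of the lipid kinase complex, had 0.47, 0.34 and 0.57 on the aged and 0.56, 0.52 and 0.75 on the young arrays, lower in aged kidney in each of the 3 slide columns, with overlapping groups and a difference of -0.15 ± 0.12 (adjusted p = 0.565). The initiating kinase Ulk2 had 1.13, 1.30 and 1.37 on the aged and 1.25, 1.31 and 1.15 on the young arrays, a difference of 0.03 ± 0.11 (adjusted p = 0.923), and its relative Ulk1 differed by -0.12 ± 0.12. The aged values of Ulk2 spanned the young ones.

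Atg9a, the membrane protein of the vesicles that seed the autophagosome, was the only member near the detection limit. Its single probe had -5.89, -6.50 and -6.27 on the aged and -5.42, -6.09 and -5.00 on the young arrays, from processed signals of 75.8, 46.5 and 35 against 102, 59.5 and 90.2. It was well above background on 0 of 3 aged and 3 of 3 young arrays, and the mean was -6.22 in aged and -5.51 in young kidney. The groups overlapped, since young replicate 2 was below aged replicate 1. The lowest signal that counted as well above background on the aged arrays averaged -5.17, above the young mean, so no fold is given. The limma fit gave an unadjusted p of 0.0333 and an adjusted p of 0.243. The probe passed the filter only through the young arrays, where it was higher, so these p-values are no support for a difference. Wipi2, which reads the phosphoinositide mark and recruits the conjugation machinery, had 0.71, 0.86 and 0.97 on the aged and 0.79, 0.68 and 0.87 on the young arrays, a difference of 0.06 ± 0.12 (adjusted p = 0.834), and its relative Wipi1 differed by -0.0042 ± 0.11.

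The 6 genes of the conjugation machinery differed by -0.14 to 0.11, with all 6 intervals within 0.5 of 0. Atg3, the E2-like enzyme that transfers Atg8 proteins to lipid, had 2.72, 2.90 and 2.81 on the aged and 2.79, 2.97 and 3.10 on the young arrays. Aged values were lower in each slide column but overlapped with the young ones, and the difference was -0.14 ± 0.12 (adjusted p = 0.601). Atg16l1, which places the reaction on the membrane, had -0.26, -0.37 and -0.11 on the aged and -0.38, -0.18 and -0.51 on the young arrays, a difference of 0.11 ± 0.13 (adjusted p = 0.724). The E1-like enzyme Atg7 differed by 0.01 ± 0.11, the ubiquitin-like Atg12 by -0.02 ± 0.10, its partner Atg5 by -0.09 ± 0.11 and the processing protease Atg4b by 0.10 ± 0.13.

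The Atg8 family, the ubiquitin-like proteins that coat the autophagosome and bind cargo receptors, differed by -0.14 to 0.07, with all 5 intervals within 0.5 of 0. Gabarapl2 had 2.96, 2.81 and 2.96 on the aged and 3.02, 3.11 and 3.03 on the young arrays. All aged arrays were below all young ones, and the difference was -0.14 ± 0.10 (0.905-fold, 95% interval 0.768 to 1.07, adjusted p = 0.533). Gabarapl1 had 4.12, 4.20 and 4.29 on the aged and 4.13, 4.22 and 4.05 on the young arrays, overlapping groups with a difference of 0.07 ± 0.11 (adjusted p = 0.785). Map1lc3b, the source of the LC3 protein most used as an autophagosome marker, differed by 0.05 ± 0.11, Map1lc3a by -0.11 ± 0.12 and Gabarap by -0.02 ± 0.11.

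Sqstm1, the cargo receptor p62 that is itself degraded by autophagy, differed by 0.03 ± 0.11, a fold of 1.02 with a 95% interval of 0.85 to 1.22. Pink1, the kinase that marks damaged mitochondria for removal, had 2.89, 3.52 and 3.16 on the aged and 3.00, 3.09 and 3.04 on the young arrays. Aged replicate 1 was the lowest and aged replicate 2 the highest of the 6, and the difference was 0.15 ± 0.16 (adjusted p = 0.708).

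**Figure D2:**
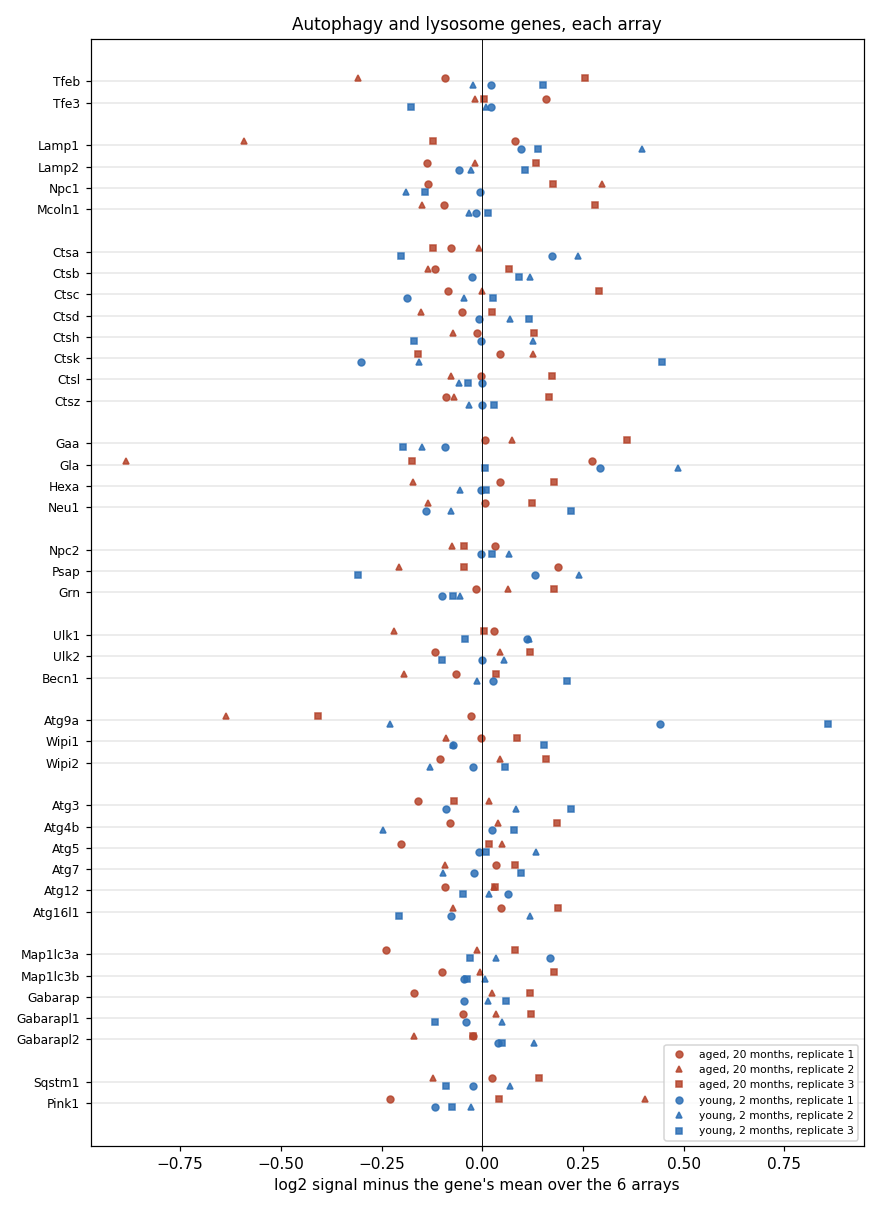
Log2 signal of each of the 40 genes (rows, grouped by role) on each array, minus the gene's mean over the 6 arrays (x axis), with aged arrays in red and young arrays in blue and the replicate number given by the marker. A reader should see that red and blue overlap for 36 genes, that aged replicate 2 of Gla and Lamp1 lies far left, and that aged replicate 3 is often the rightmost point.

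Aged replicate 3 was the highest of the 6 arrays for 18 members (45%) and the lowest for 0, while aged replicate 2 was the lowest for 15 (37.5%) and aged replicate 1 for 10 (25%). Over all genes tested with 6 values, aged replicate 3 was highest for 27% and lowest for 17.3%, aged replicate 2 lowest for 22.7% and aged replicate 1 lowest for 19%. The members' median deviation from the gene mean was -0.05, -0.07 and 0.10 on aged replicates 1 to 3 and -0.01, 0.01 and 0.01 on young replicates 1 to 3. From lowest to highest array, the 39 members above background on all 6 arrays spanned 0.142 (Npc2) to 1.37 (Gla). The median over all 40 was 0.335, against 0.476 for all genes tested. The aged minus young difference had the same sign in all 3 slide columns for 11 of 40 members (27.5%), against 40% of all genes tested.

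For the 11 members with 2 probes, single probes were fitted together with all 30821 tested probes, of which 2.09% were called, and 0 of the 51 member probes were. Both probes gave differences of the same sign for 4 genes, Ulk2, Wipi2, Atg7 and Atg12, and of opposite sign for the other 7. The widest gap between the 2 probes of a gene was 0.48, for Gaa. The second probes of Ctsa and Ctsd differed by 0.15 ± 0.11 and 0.06 ± 0.11, against -0.14 and -0.12 for the brighter ones. Both probes of Gabarap (-0.02 and 0.00) and of Lamp2 (-0.01 and 0.02) were near 0. The 2 probes of Lamp2 were named through different RefSeq transcripts, and which transcripts each reads was not tested.

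**Figure D3:**
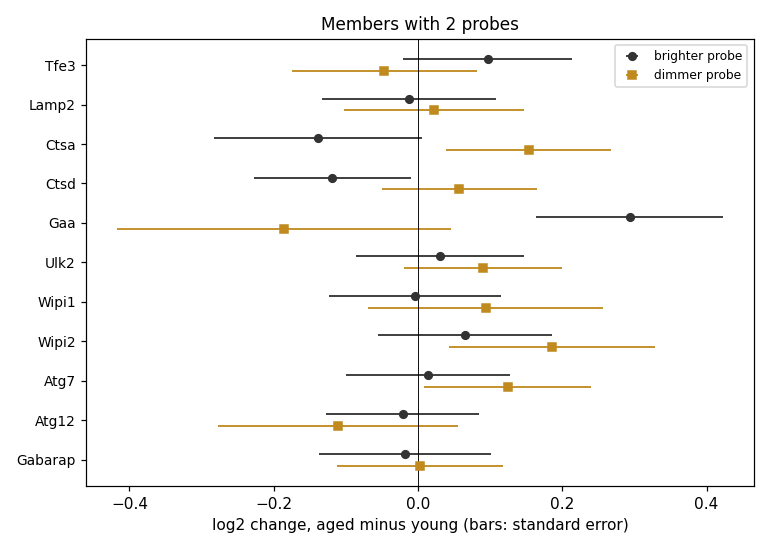
Log2 difference between aged and young kidney (x axis) for the brighter probe (black circle) and the dimmer probe (yellow square) of the 11 members with 2 probes, with bars for the standard error. A reader should see that most pairs lie on both sides of 0 and that Gaa has the widest gap, 0.48.

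Further genes of the same systems, in 5 lists that share no gene with the 40, gave 2 calls among 136 tested genes (1.47%, against 3.38% of all genes tested), both higher. Of 35 other lysosomal hydrolases, 2 rose, 0 fell and 33 did not pass, with a median of 0.01. Ctsw, a cathepsin of cytotoxic T cells and natural killer cells, had -1.501, -1.43 and -1.73 on the aged and -2.42, -2.45 and -2.14 on the young arrays, a rise of 0.78 ± 0.13 (adjusted p = 0.0254). Ctss, the cathepsin of antigen-presenting cells that trims the class II invariant chain, had 2.44, 2.44 and 2.71 on the aged and 1.73, 1.91 and 2.04 on the young arrays, a rise of 0.64 ± 0.13 (adjusted p = 0.0451). Neither gene's groups overlapped. Ctsw lost its call in 6 and Ctss in 9 of 17 alternatives, including leaving out aged replicate 2 (adjusted p = 0.101 and 0.115) and young replicate 1 (0.107 and 0.174), while both differences stayed above 0.5 in all of them. Ids, a sulfatase of glycosaminoglycan breakdown, and Arsa, a sulfatase of sulfatide breakdown, differed by 0.49 ± 0.17 (adjusted p = 0.204) and 0.38 ± 0.18 (adjusted p = 0.341).

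Most tested markers of immune cells lay higher in aged kidney, as these 2 cathepsins did. Of all 14545 genes tested, 6862 had differences above 0. The counts below are of calls, where 3.38% of all genes tested were called. Of markers with a probe, 17 of 19 for macrophages and dendritic cells, 9 of 9 for T cells and 6 of 8 for B and plasma cells passed the filter. A marker dim in young kidney could pass it through the aged arrays alone, where it was higher. The number that did is not given here, and a call of such a marker is no support for a rise. Of 17 tested macrophage and dendritic cell markers 4 rose and 0 fell, with a median of 0.47 and array medians around the gene mean of 0.14 to 0.32 in aged and -0.50 to -0.06 in young kidney. Of 9 T cell markers 4 rose (median 0.71, array medians 0.11 to 0.51 in aged and -0.58 to -0.25 in young kidney), and of 6 B cell and plasma cell markers 4 rose (median 1.6, array medians 0.62 to 1.1 in aged and -1.06 to -0.61 in young kidney). Differences below 0 were found for 1 T cell marker (-0.235) and 1 B cell and plasma cell marker (-0.328), neither called. The part of immune cells in the rise of Ctsw and Ctss was not tested. Laptm5, a lysosomal membrane protein of blood cells, differed by 0.50 ± 0.20 (adjusted p = 0.252 in limma).

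Of 25 other lysosomal membrane and sorting genes 0 were called in limma (median 0.09), and 2 (8%) had an unadjusted p under 0.05, fewer than the 17.1% of all genes tested. They were Laptm5 and Mfsd8, a lysosomal transporter, which differed by -0.29 ± 0.10 (adjusted p = 0.195) with all aged arrays below all young ones. Slc11a1, a metal transporter of phagocytes, and Scarb2, a receptor that carries glucocerebrosidase to the lysosome, differed by 0.27 ± 0.16 and 0.21 ± 0.13.

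Of 22 subunits and accessory proteins of the V-ATPase, the proton pump that acidifies lysosomes, 0 were called (median -0.04). An unadjusted p under 0.05 was reached by 3, all lower, a share of 13.6% that is below the 17.1% of all genes tested and is no result about the pump. Atp6v1c2, a subunit form of kidney and other specialised epithelia, had -0.42, -0.30 and -0.08 on the aged and 0.18, 0.23 and 0.33 on the young arrays, a difference of -0.51 ± 0.12 (adjusted p = 0.0727). Its groups lay fully apart. Atp6v0d2, a form found in intercalated cells of the collecting duct and in osteoclasts, differed by -0.45 ± 0.18 (adjusted p = 0.269) and Atp6v0a2 by -0.36 ± 0.14 (adjusted p = 0.239). Atp6v1c1, the widely expressed counterpart of Atp6v1c2, differed by 0.24 ± 0.14 (adjusted p = 0.45). The 10 collecting duct markers, which share Atp6v1g3 with the V-ATPase list, all had differences below 0, as did 7683 of all 14545 genes tested. Their median was -0.23, with 0 called and 3 with an unadjusted p under 0.05 in limma. Their array medians were -0.27 to 0.02 in aged and 0.08 to 0.14 in young kidney. The part of these markers in the V-ATPase values was not tested.

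Of 32 other autophagy genes 0 were called and 0 had an unadjusted p under 0.05 (median -0.02, range -0.26 to 0.21). Those with the smallest p were Ambra1, a regulator of Beclin 1 (-0.26 ± 0.13), Atg4c, a protease for Atg8 proteins (0.21 ± 0.12), Uvrag, a Beclin 1 partner (-0.22 ± 0.14), and Rb1cc1, the scaffold of the Ulk complex (0.18 ± 0.13), with adjusted p from 0.368 to 0.556. Of 22 regulators of TFEB and of autophagy 0 were called (median 0.00). An unadjusted p under 0.05 was reached by 4, a share of 18.2% that is close to the 17.1% of all genes tested and is no result about the regulators. Fnip2, a partner of folliculin, had 2.14, 2.44 and 2.57 on the aged and 1.90, 1.94 and 1.88 on the young arrays, a difference of 0.48 ± 0.13 (adjusted p = 0.113), with all aged arrays above all young ones. Zkscan3, described as a repressor of lysosome and autophagy genes, had 0.48, 0.48 and 0.11 on the aged and 0.62, 0.76 and 0.83 on the young arrays, a difference of -0.38 ± 0.14 (adjusted p = 0.207) with groups apart. Rheb, the activator of mTORC1, differed by 0.28 ± 0.12 (adjusted p = 0.29). Rragd, a Rag GTPase that is itself a known TFEB target, had -4.29, -5.45 and -5.40 on the aged and -4.36, -3.81 and -4.62 on the young arrays (adjusted p = 0.286). Rragd was above background on 1 of 3 aged and 3 of 3 young arrays, so no size is given for the difference. It passed the filter only through the young arrays, where its mean was higher, so its p is no support for a difference.

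**Figure D4:**
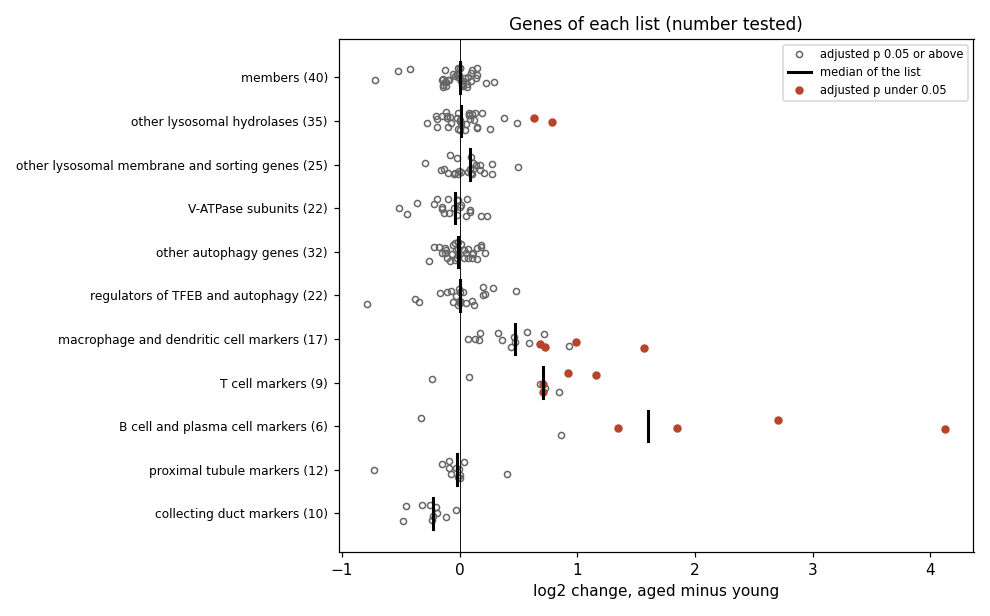
Log2 difference between aged and young kidney (x axis) for each tested gene of the 40 members, the 5 further lists and 5 marker lists (rows, with the number tested), where filled red points passed an adjusted p of 0.05 and black bars are medians. A reader should see the members and the autophagy lists centred on 0 with no red point, 2 red points among the other hydrolases, and the macrophage, T cell and B cell markers shifted to the right with medians of 0.47, 0.71 and 1.6.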

How the data were processed

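Per the labels, Trizol RNA was made into cDNA that Klenow enzyme labelled with Cy3 from random primers. Strand is not kept this way, and a probe cannot tell a gene from its antisense partner. Per the file headers, the deposited intensity is Agilent Feature Extraction 11.5.1.1 processed signal (design 028005, grid build mm9). The authors' deposited table of log2 values equals the averaged log2 processed signal minus a constant per array (spread of the gap at most 3.4e-06), with column medians of -3.96, -4.17 and -4.23 for aged and -3.97, -4.05 and -4.23 for young replicates 1 to 3.

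Control and outlier-flagged spots were left out, spots of a probe averaged on the log2 scale, and each array's 75th percentile over spots subtracted. Probes were named through unversioned RefSeq accessions (GRCm38.p6 table); 26762 of 55681 had 1 symbol and 28919 none. The brightest probe stood for a gene, and it was tested if at least 1 age had it well above background on every array. limma 3.58.1 (R 4.3.3; lmFit, eBayes, two-sided) was run on all genes with Benjamini-Hochberg adjustment and a threshold of 0.05, and 95% intervals used its moderated SE. Values on all arrays are printed for members with groups apart and for the largest difference in each direction within each role group; of each further list the 4 smallest p are named. The members and lists were chosen with earlier results of these data known. The procedure was tested on simulated data. Figures used matplotlib 3.10.9.

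Alternatives tried were median centring, quantile normalisation, the authors' values, normexp (offset 50, on the median signal, since the files used here hold no mean signal), 2 other filters, averaging a gene's probes, keeping outlier spots, a trended robust variance, array weights, the replicate block and leaving out each array.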

Additional observations from a re-analysis of the deposited data

How the results depend on the processing

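The count of called members was 0 in all 17 alternatives, and their median difference stayed between -0.05 and 0.04, also when leaving out each array (-0.0482 to 0.0351). The smallest adjusted p that any member reached in limma was 0.0886 (Atg9a, which passed the filter only through the young arrays). Leaving Atg9a aside, it was 0.103 (Gla). Over all genes 491 were called (288 higher, 203 lower), with 801 under median centring (433 higher, 368 lower), 306 with normexp (214 higher, 92 lower), 782 with array weights, 16 with no filter on dim probes, and 141 to 925 when leaving out each array, with 925 (346 higher, 579 lower) when aged replicate 1 was left out and 141 when aged replicate 2 was. The count was 245 without aged replicate 3 and 161, 242 and 238 without young replicates 1, 2 and 3. Among the 136 further genes, 2 were called, with 1 under median centring, 0 with normexp, 0 with no filter, 4 with a trended robust variance, 4 with array weights and 0 to 5 when leaving out each array. With the replicate block 266 of all genes and 0 of the further genes were called. Same-numbered deviations from the group means correlated at 0.0622, -0.0917 and 0.102 for numbers 1, 2 and 3. Aged replicate 1 correlated at 0.0631 with young replicate 2 and at -0.111 with young replicate 3. Aged replicate 2 correlated at 0.068 with young replicate 1 and at 0.0161 with young replicate 3. For aged replicate 3 the values were -0.123 with young replicate 1 and 0.0139 with young replicate 2. These values are all small, and deviations from a mean of 3 arrays are not independent, so they cannot decide whether the numbers pair the samples. Each number was also 1 slide column, and array brightness fell from number 1 to number 3 at both ages.

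The sign of the difference turned in at least 1 of the 17 alternatives for 22 of the 40 members, in 19 of them on leaving out an array, and in none for 18. The same counts over all genes tested were not made. The largest difference among the members that turned was 0.146 in size (Pink1). On leaving out some single array, all 40 turned or moved by over 1.5 times, among them Wipi2 (0.0017 to 0.133), Ctsc (0.0252 to 0.212), Npc1 (0.134 to 0.35), Gaa (0.187 to 0.364), Gla (-0.792 to -0.212) and Lamp1 (-0.566 to -0.23). Of the members with values on all arrays printed, those that turned were Gabarapl1 to -0.049 with normexp, Ctsa to 0.0072 with the mean of its probes, Tfeb to 0.031 and Pink1 to -0.0203 without aged replicate 2, and Ulk2 to -0.022 without aged replicate 3 and -0.0115 without young replicate 3. Leaving out each array also gave ranges of -0.25 to 0.031 for Tfeb, -0.022 to 0.0972 for Ulk2 and -0.0203 to 0.297 for Pink1. The second probe turned the sign of Ctsa (0.153), Ctsd (0.0575), Gaa (-0.186), Gabarap (0.0027), Lamp2 (0.0223), Tfe3 (-0.0464) and Wipi1 (0.0937). For all of these the cause was not tested. Signal near background limits Atg9a, which has no value under the filter on all 6 arrays, and Rragd.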
